A study of Rattus norvegicus with 6 samples.

Results

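The dystrophin-associated protein complex was followed at the RNA level in cells grown from the rat aorta, in 10 genes: the dystrobrevin genes Dtna and Dtnb, Dmd (dystrophin), Utrn (utrophin), Dag1 (dystroglycan), the sarcoglycan genes Sgcb, Sgcd and Sgce, and the syntrophin genes Sntb1 and Sntb2. They were picked by symbol from the 16770 genes of the deposited count table, all 10 were found, and all 10 passed the filter on low counts. The genes were listed with their levels by strain and batch in these 6 libraries known, so those levels, fold changes and calls are given as a description and are not a test of the genes. Cells came from 2 inbred strains, the spontaneously hypertensive rat (SHR) and the normotensive Wistar Kyoto rat (WKY), both 3 months old, with 3 libraries each. In both strains pieces of the aorta nearest the heart were set on culture plates with their inner surface downward, and RNA came from cells kept in a serum-containing medium made for endothelium. Batch 1, by the labels, holds replicates 1 and 2 of SHR and of WKY, while both replicates numbered 3 form batch 2. They do not say what the batches differ in, nor whether each library came from its own animal, so errors measure the spread between these libraries.

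Dystrophin is a long rod that ties the actin cytoskeleton to the membrane protein dystroglycan, which in turn grips laminin outside the cell through a sugar chain that a dedicated set of enzymes builds. Sarcoglycans form a small membrane group beside dystroglycan, while dystrobrevins and syntrophins form the inner scaffold to which channels, kinases and other signalling proteins dock. The complex is best known from muscle, where its loss causes muscular dystrophies, and it is also present in vascular smooth muscle; utrophin, the close relative of dystrophin, is made in many cell types, endothelium among them.

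Total counts lay between 18462032 and 19947286 per library, and the lowest count of any of the 10 genes in any library was 44. Levels are counts per 1000000 of the scaled library (CPM), which are not divided by transcript length and so are compared between libraries and not between genes. The titles of all 6 libraries call the cells endothelial, and this cell type label was checked against marker genes. Of 11 matched endothelial markers, 6 were below 1 CPM in all 6 libraries. Cdh5 (VE-cadherin) had at most 0.105 CPM and Pecam1 (CD31) at most 2.18 CPM. Egfl7 was higher, with 6.39 to 27.2 CPM. Ptprb reached 9.04 CPM in WKY replicate 2 and lay between 0.255 and 2.78 CPM in the other libraries. Esam reached 1.87 CPM in WKY replicate 3 and at most 0.423 CPM in the other libraries. Tek had 4.72 to 9.38 CPM in SHR and 0.435 to 1.85 CPM in WKY. With Cdh5 and Pecam1 this low, the libraries did not show the RNA of typical endothelium, and the cells are called cultured aortic cells here. The summed level of 10 smooth muscle markers was 1107, 953 and 2513 CPM in SHR replicates 1 to 3, against 825, 969 and 9131 CPM in WKY replicates 1 to 3. That of 9 fibroblast markers, most of it from Col1a1 and Col3a1, was 10206 to 13785 CPM in SHR and 5359 to 13499.7 CPM in WKY. Tcf21 was at or under 3 counts in every WKY library and passed the filter through SHR alone. The other 8 all had a positive fitted difference, though it was near 0 in Pi16 (0.06, SE 0.27) and Col1a1 (0.1, SE 0.49). Col1a1 was lower in SHR in batch 2 (-1.25 in log2 CPM). Of the 8, 5 did not overlap between the strains, beside 9.81% of all genes tested (4.51% higher in SHR). DESeq2 called 5 higher, beside 2.85% of all genes, and edgeR called 0 higher, beside 0.103%. The marker Dpt is counted in both sets of 5. It had 491, 305 and 819 counts in SHR replicates 1 to 3, against 2, 14 and 1 in WKY replicates 1 to 3. Dpt thus also passed the filter through SHR. Dcn (decorin) had 386, 245 and 1307 CPM in SHR replicates 1 to 3, against 61.5, 26.9 and 8.39 CPM in WKY replicates 1 to 3. Markers of skeletal muscle (4 matched) summed to at most 6.44 CPM and those of heart muscle (5 matched) to at most 5.35 CPM in any library. In such bulk samples, fewer cells of a type and less RNA per cell cannot be told apart.

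Alpha- and beta-dystrobrevin differed in opposite directions. Dtna, which encodes alpha-dystrobrevin, the form typical of muscle, had 2.31, 2.85 and 22.1 CPM in SHR replicates 1 to 3, against 17.8, 13.5 and 105 CPM in WKY replicates 1 to 3. Each SHR library lay below the WKY libraries of its own batch, and the strains overlapped only because the SHR library of batch 2 exceeded both WKY libraries of batch 1. The fitted log2 fold change, with batch as a term, was -2.47 (SE 0.19), a level 5.53-fold higher in WKY. The difference in log2 CPM between SHR and WKY was -2.55 within batch 1 and -2.23 between the single libraries of batch 2.

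Dtnb, which encodes beta-dystrobrevin, the form known from non-muscle tissues such as brain and kidney, had 33.3, 25.0 and 60.2 CPM in SHR replicates 1 to 3, against 14.6, 17.2 and 36.6 CPM in WKY replicates 1 to 3. Each SHR library was above the WKY libraries of its batch, and the WKY library of batch 2 reached above both SHR libraries of batch 1. The fitted log2 fold change was 0.82 (SE 0.16), with 0.86 within batch 1 and 0.72 in batch 2.

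**Figure D1:**
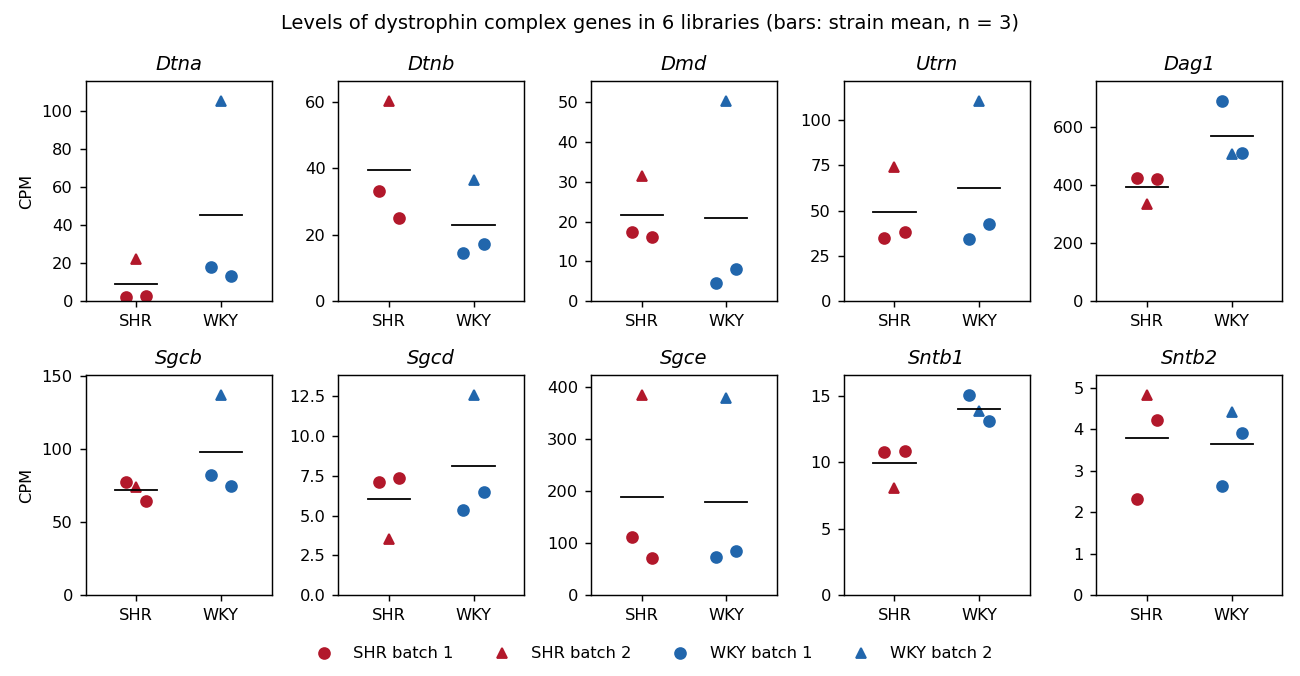
Levels of the 10 genes in CPM, with SHR left of WKY in each panel, circles for batch 1, triangles for batch 2 and a bar at the strain mean of 3 libraries. Dtna reached 22.1 CPM in SHR and 105 CPM in WKY in batch 2, while batch 1 libraries had 2.31 to 2.85 CPM in SHR and 13.5 to 17.8 CPM in WKY.

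Because the 2 differences ran against each other, the dystrobrevin counts were also expressed as shares within each library, which does not depend on library scaling. Dtna made up 6.48%, 10.3% and 26.9% of the Dtna and Dtnb counts in SHR replicates 1 to 3, against 54.9%, 44.0% and 74.1% in WKY replicates 1 to 3. The 3 SHR shares all lay below the 3 WKY shares. The 95% Wilson interval of the highest SHR share ran from 24.8% to 29.1% and that of the lowest WKY share from 40.0% to 48.0%; these intervals cover counting error only. The 2 genes differ in length, so the shares compare libraries and are not molar proportions. The added level of both genes was 35.6 and 27.8 CPM in the batch 1 SHR libraries, against 32.5 and 30.8 CPM in the batch 1 WKY libraries, and 82.4 CPM in SHR against 141 CPM in WKY in batch 2. In batch 1 the strains thus overlapped in the sum of the dystrobrevins while their make-up did not overlap.

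**Figure D2:**
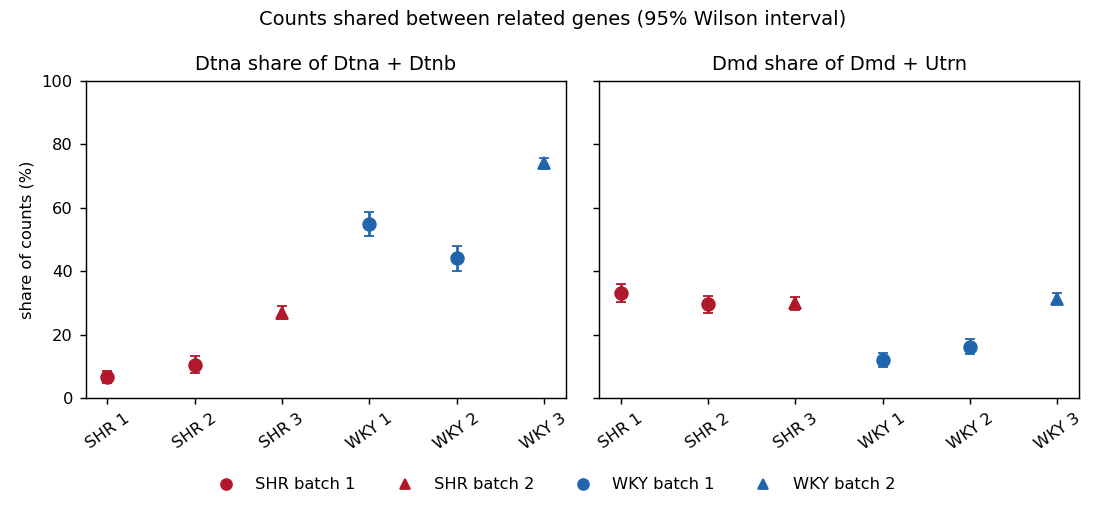
Share of counts in percent for Dtna among the dystrobrevins (left) and Dmd among dystrophin and utrophin (right), per library with its 95% Wilson interval, SHR left of WKY. The Dtna share was 6.48% to 26.9% in SHR and 44.0% to 74.1% in WKY, and the Dmd share was 29.5% to 33.1% in SHR and 11.9% to 31.3% in WKY.

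Of the 10 genes, 1 (Dtna, lower) was called between SHR and WKY by the edgeR quasi-likelihood test at an adjusted p below 0.05, where 0.254% of the 12614 genes tested were called, 0.151% lower and 0.103% higher. With the replicate number as a block 0 of the 10 were called, beside 0.0476% of all genes (0.0159% higher and 0.0317% lower). The adjusted p of Dtna over all genes was 0.0177, and 0.0858 with that block. With 1 library left out, it was 0.0411 without WKY replicate 2 and 0.042 without SHR replicate 3. It was above the threshold at 0.0574 and 0.0773 without WKY replicate 1 or 3, and at 0.159 and 0.151 without SHR replicate 1 or 2. The log2 fold change lay between -2.6 and -2.32 in these 6 fits. From batch 1 alone it was -2.6 (adjusted p = 0.0621), and with no batch term -2.31 (adjusted p = 1.0). DESeq2 called 3 of the 10 genes, Dtna and Dag1 lower and Dtnb higher, beside 5.51% of all genes, 2.66% lower and 2.85% higher. In the log2 values the authors deposited, the batch means are equal in every gene. There Dtna stood at 7.63 ± 0.09 in SHR and 9.07 ± 0.14 in WKY, and Dtnb at 9.42 ± 0.13 in SHR and 8.9 ± 0.07 in WKY (SD, n = 3 each). These SDs thus leave out the mean difference between the batches, which the CPM values hold, and do not measure the full spread between libraries.

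Within batch 1, where the Dtna difference was -2.55, the summed smooth muscle markers were 1107 and 953 CPM in SHR, against 825 and 969 CPM in WKY. Most of that sum came from Tagln and Acta2, and the single smooth muscle markers did not all follow it. Of the 9 tested, 8 had a difference below 0 in the fit over all 6 libraries, and 6 had one below 0 within batch 1. In batch 1, Mylk (0.9), Acta2 (0.71) and Tagln (0.14) were higher in SHR on the log2 CPM scale. Lmod1 (-0.09), Smtn (-0.09) and Synpo2 (-0.04) were near 0 there, and Myh11 stood at -0.57. Des (desmin) had 2.47 and 1.68 CPM in the batch 1 SHR libraries, against 21.8 and 19.9 CPM in the batch 1 WKY libraries (log2 CPM difference -3.29), and in batch 2 it was higher in SHR (4.77). Myocd (myocardin, a coactivator of smooth muscle genes) had 4.46 and 2.91 CPM in the batch 1 SHR libraries, against 6.97 and 9.99 CPM in the batch 1 WKY libraries (-1.19), and it was called lower over all libraries by DESeq2 (adjusted p = 0.00197) and not by edgeR (0.2). The fibroblast markers summed to 13785 and 11308 CPM in the batch 1 SHR libraries, against 5359 and 8468 CPM in the batch 1 WKY libraries. Over all 6 libraries, 5 of the 8 fibroblast markers without Tcf21, Dpt among the 5, did not overlap between the strains. Over all genes the strains were free of overlap in 9.81%, with SHR higher in 4.51%. The part of either marker list in the dystrobrevin differences was not tested. A strain difference of at least 2 in log2 CPM with the same sign in both batches, as in Dtna, was shown by 1.31% of all genes tested. Dtna was listed with its levels known, and batch 2 holds 1 library per strain, so this share does not measure how unusual Dtna is.

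The bases upstream of the RefSeq start of both dystrobrevin genes (GRCr8 build) are shown because the 2 paralogs differ in opposite directions, and their start regions are unlike. The 250 bases before the start of each gene are given 5′ to 3′ on the gene's strand, with any GC box (GGGCGG or its reverse complement CCGCCC) in capitals. Dtna lies at chr18:14961785-14962034, plus strand, and Dtnb at chr6:32286232-32286481, plus strand.
Dtna: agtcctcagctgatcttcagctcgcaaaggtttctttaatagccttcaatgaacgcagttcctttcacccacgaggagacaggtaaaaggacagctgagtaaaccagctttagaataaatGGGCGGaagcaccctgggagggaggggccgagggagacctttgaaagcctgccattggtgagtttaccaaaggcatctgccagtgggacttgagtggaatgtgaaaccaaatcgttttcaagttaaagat
Dtnb: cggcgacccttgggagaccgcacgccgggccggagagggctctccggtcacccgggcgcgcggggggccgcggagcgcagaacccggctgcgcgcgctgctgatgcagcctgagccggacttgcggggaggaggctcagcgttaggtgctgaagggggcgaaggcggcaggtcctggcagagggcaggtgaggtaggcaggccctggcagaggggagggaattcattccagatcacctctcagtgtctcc
The Dtna window was 48.0% G or C with 6 CG dinucleotides, near the medians of 51.2% and 5 over the windows of all 33469 listed starts, whereas the Dtnb window was 71.2% G or C with 23 CG dinucleotides, a number reached by 12.3% of windows. The Dtna window held 1 GC box, starting at position -130 from the start, a motif found in 30.5% of all windows, and the Dtnb window held none. Neither window held an N-box (TTCCGG or CCGGAA, in 12.6% of windows), a TATA box (TATAAA or TTTATA, in 12.9%) or a CArG box, the serum response factor motif (in 1.5%). A match is a description of the letters, and both genes have several transcripts whose use the gene counts do not separate.

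Dystrophin and utrophin, which occupy the same place in the complex, did not keep a fixed ratio. Dmd had 17.3, 16.1 and 31.5 CPM in SHR replicates 1 to 3, against 4.64, 8.09 and 50.2 CPM in WKY replicates 1 to 3. In batch 1 both SHR libraries lay above both WKY libraries, whereas in batch 2 the SHR library lay below the WKY library. The log2 CPM difference was 1.43 in batch 1 and -0.67 in batch 2, and whether the batches differ in it was not tested. The fitted log2 fold change was 0.70 (SE 0.51), 1.39 without either library of batch 2 and 0.25 without WKY replicate 1.

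Utrn had 34.9, 38.4 and 74.2 CPM in SHR replicates 1 to 3, against 34.5, 42.4 and 110.4 CPM in WKY replicates 1 to 3. The batch 1 libraries of the strains overlapped, and the fitted log2 fold change was -0.24 (SE 0.17). Dmd accordingly took 33.1%, 29.5% and 29.8% of the Dmd and Utrn counts in SHR replicates 1 to 3, against 11.9%, 16.0% and 31.3% in WKY replicates 1 to 3. The share was similar in all SHR libraries and in the WKY library of batch 2, and lower in the batch 1 libraries of WKY. The gene counts do not separate full-length dystrophin from the shorter forms that start inside the gene, such as Dp71, the form usual outside muscle.

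The RefSeq table used here holds 3 start regions for Dmd in GRCr8. The first one along the gene (chrX:51205836-51206085, plus strand) is shown because it held a CArG box, in capitals from position -98, and it was the sole window among those matched for 8 of the 10 genes with that motif.
Dmd: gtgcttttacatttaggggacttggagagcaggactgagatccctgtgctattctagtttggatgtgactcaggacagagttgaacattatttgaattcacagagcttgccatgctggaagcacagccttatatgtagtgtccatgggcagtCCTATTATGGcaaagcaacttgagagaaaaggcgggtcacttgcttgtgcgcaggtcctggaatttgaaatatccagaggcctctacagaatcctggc
The other 2 Dmd windows overlap each other far downstream and held 2 and 3 GC boxes and 1 TATA box each. Which start these cells used is not given by the counts.

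Dag1, which encodes both subunits of dystroglycan, had 425, 422 and 334 CPM in SHR replicates 1 to 3, against 689, 512 and 507 CPM in WKY replicates 1 to 3. All SHR libraries lay below all WKY libraries, as for Sntb1. Of the 10 genes, these 2 were free of overlap between the strains, both lower in SHR, beside 9.81% of all genes (5.30% lower and 4.51% higher in SHR). The fitted log2 fold change was -0.54 (SE 0.17), with -0.49 in batch 1 and -0.60 in batch 2. It averaged 394 ± 51.8 CPM in SHR and 569 ± 104 CPM in WKY (SD, n = 3 each).

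None of the 3 sarcoglycan genes was called between the strains by edgeR or DESeq2. Sgcb (beta-sarcoglycan) had 77.4, 64.1 and 73.8 CPM in SHR replicates 1 to 3, against 82.0, 74.7 and 137 CPM in WKY replicates 1 to 3, with a log2 fold change of -0.40 (SE 0.20). The batch 1 libraries of the strains overlapped and the WKY library of batch 2 stood above all others. Sgce (epsilon-sarcoglycan, the widely expressed relative of the muscle alpha form) had 111, 70.5 and 385 CPM in SHR replicates 1 to 3, against 72.7, 84.5 and 379 CPM in WKY replicates 1 to 3, and its log2 fold change was 0.15 (SE 0.21). Sgcd (delta-sarcoglycan) had 7.14, 7.39 and 3.53 CPM in SHR replicates 1 to 3, against 5.35, 6.50 and 12.6 CPM in WKY replicates 1 to 3. It was thus slightly higher in SHR in batch 1 (0.30 on the log2 scale) and lower in SHR in batch 2 (-1.80), and the fitted value of -0.38 (SE 0.48) changed sign to 0.30 without either batch 2 library.

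Of the syntrophins, adaptors that bind dystrophin and dystrobrevin and carry signalling proteins, Sntb1 (beta-1) had 10.8, 10.9 and 8.11 CPM in SHR replicates 1 to 3, against 15.1, 13.1 and 13.9 CPM in WKY replicates 1 to 3. The strains did not overlap, and the log2 fold change was -0.51 (SE 0.17), with -0.37 in batch 1 and -0.77 in batch 2. Sntb2 (beta-2) had 2.31, 4.23 and 4.83 CPM in SHR replicates 1 to 3, against 2.63, 3.91 and 4.41 CPM in WKY replicates 1 to 3, with overlapping strains and a log2 fold change of 0.05 (SE 0.35).

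**Figure D3:**
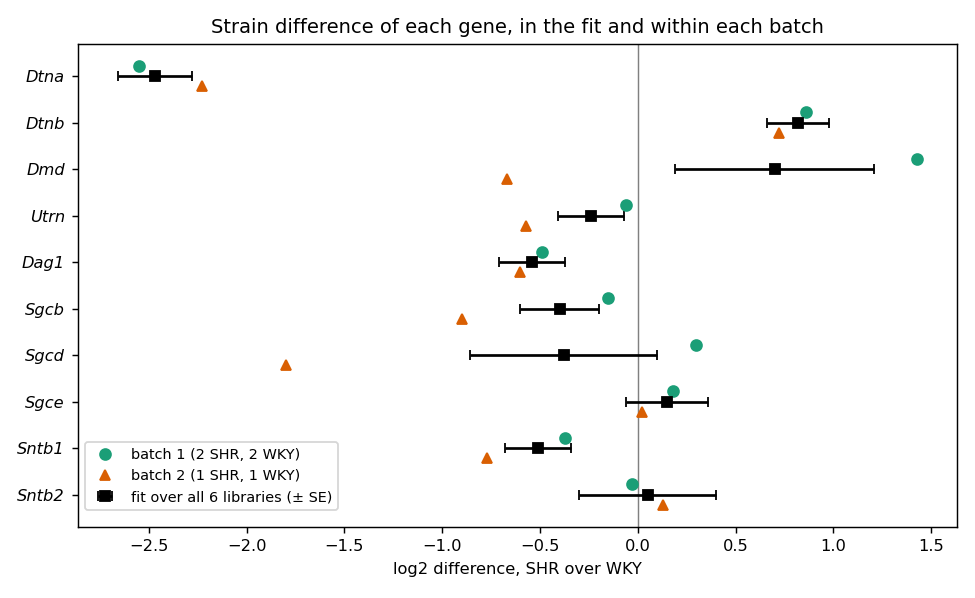
Log2 difference of SHR over WKY for each gene, from the fit over 6 libraries (squares, ± SE), within batch 1 (circles, log2 CPM) and within batch 2 (triangles, log2 CPM). Dtna (-2.47) lies apart from the other 9 genes (-0.54 to 0.82), and Dmd, Sgcd and Sntb2 have opposite signs in the batches.

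Across the 10 genes, 4 had a positive and 6 a negative fitted difference, with a median of -0.31, beside -0.02 over all genes tested. The median was -0.03 without either batch 2 library. The strain difference had the same sign in both batches in 7 of 10 genes, beside 59.1% of all genes, and the 3 others were Dmd, Sgcd and Sntb2.

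The same genes were then read by batch. The batches differed widely, since 43.5% of all genes tested were called between them, 21.0% as higher in batch 2 and 22.5% as lower. Of the 10 genes, 5 were called higher in batch 2 and 0 lower by edgeR, and DESeq2 called the same numbers, beside 51.0% of all genes with that tool (25.9% higher and 25.1% lower). The 5 were Dtna, with a log2 fold change of 2.91 (SE 0.18), Sgce with 2.18 (SE 0.21), Dmd with 2.06 (SE 0.51), Utrn with 1.28 (SE 0.17) and Dtnb with 1.12 (SE 0.17). In each of them, and in Sntb2, both batch 2 libraries exceeded all 4 batch 1 libraries. Over all genes the batches were free of overlap in 57.6%, with batch 2 higher in 27.2% and lower in 30.4%. Dtna, Dtnb, Utrn and Sgce were called in each of the 6 fits that left out 1 library. Dmd was not called without WKY replicate 2 (adjusted p = 0.0845), WKY replicate 3 (0.107) or SHR replicate 2 (0.0622), and its log2 fold change was 0.91 without WKY replicate 3 and 2.98 without SHR replicate 3 (edgeR).

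The size of the batch difference was alike in the strains for Dtna (3.06 within SHR and 2.74 within WKY, in log2 CPM), Sgce (2.12 within SHR and 2.27 within WKY) and Dtnb (1.06 within SHR and 1.2 within WKY), each from 1 batch 2 library per strain. It was 0.91 within SHR and 3.01 within WKY for Dmd, and Sgcd was lower in the batch 2 library of SHR (-1.02) and higher in that of WKY (1.08). These contrasts between strains were not tested. Dag1 (-0.29, SE 0.19) and Sntb1 (-0.21, SE 0.18) had fitted batch differences below 0 and were not called. Smooth muscle markers moved with the batches as well: 7 of the 9 tested were called higher in batch 2 and 0 lower, beside 21.0% and 22.5% of all genes. Their summed level was 2513 CPM in SHR and 9131 CPM in WKY in batch 2, against 953 to 1107 CPM in SHR and 825 to 969 CPM in WKY in batch 1. Their part in the batch differences of the complex genes was not tested.

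**Figure D4:**
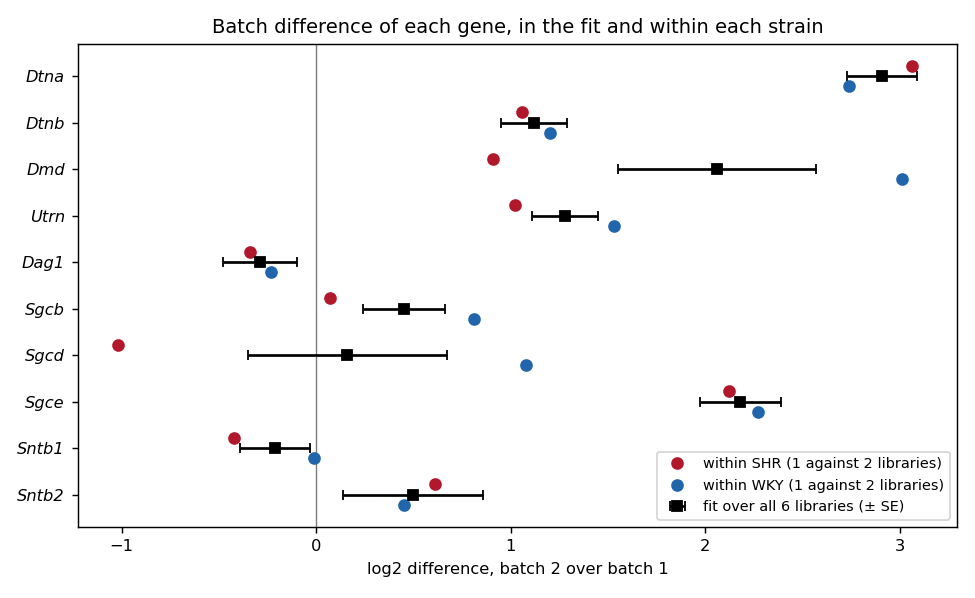
Log2 difference of batch 2 over batch 1 for each gene, from the fit over 6 libraries (squares, ± SE) and, in log2 CPM, within SHR and within WKY (circles). Dtna, Sgce, Dmd, Utrn and Dtnb lie between 1.12 and 2.91 in the fit, and Sgcd lies at -1.02 within SHR and 1.08 within WKY.

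The remaining parts of the complex were taken from 5 lists of known partners, 60 genes of which 57 were matched and 50 passed the filter. Between SHR and WKY, edgeR called 0 of the 50 over all 5 lists, beside 0.254% of all genes. It also called 0 with the replicate block, beside 0.0476%. With so few genes called in all, 0 in lists of this size does not show that the strains were alike. This holds for each list below. An unadjusted edgeR p under 0.05 was reached by 2 genes in the higher and 12 in the lower direction, beside 6.10% and 7.18% of all genes. DESeq2 called 1 higher and 11 lower, beside 2.85% and 2.66% of all genes with that tool. Without Sntg1, left out after seeing the data because it passed the filter through WKY alone, 11 were lower at the unadjusted p and 10 by DESeq2. Cav3, which also passed the filter through WKY, is in all of these lower counts. For the lists below, adjusted p-values are those of the edgeR quasi-likelihood test over all genes unless DESeq2 is named.

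Among the other subunits, 6 of 8 matched genes could be tested and 0 were called. The median log2 fold change was -0.14 over the 5 without Sntg1. Sspn (sarcospan, a tetraspan-like protein bound to the sarcoglycans) had 56.7, 33.3 and 138 CPM in SHR replicates 1 to 3, against 16.1, 27.8 and 68.0 CPM in WKY replicates 1 to 3, higher in SHR within each batch (1.03 in the fit, SE 0.29, adjusted p = 0.265, and 0.0306 by DESeq2).

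Sntg1 (gamma-1-syntrophin) was near its detection limit, with 1, 0 and 0 counts in SHR replicates 1 to 3, against 16, 50 and 40 counts in WKY replicates 1 to 3. It passed the filter through WKY alone, so no test of it by itself is given, though the list totals that do not leave it out count it. A count of 0 allows up to 3 counts, or 0.15 to 0.19 CPM per library. Nos1, the neuronal nitric oxide synthase that docks to the complex in muscle, had 0 counts in all 6 libraries. Sgca (alpha-sarcoglycan), named here after its values were seen, had 9.29, 4.33 and 4.52 CPM in SHR replicates 1 to 3, against 12.2, 15.2 and 41.9 CPM in WKY replicates 1 to 3 (log2 fold change -1.71, SE 0.58, adjusted p = 0.336, and 0.0441 by DESeq2). Among Sgca and Sgce counts, which stand for the alternative alpha and epsilon forms, Sgca took 7.7%, 5.79% and 1.16% in SHR replicates 1 to 3, against 14.4%, 15.3% and 9.95% in WKY replicates 1 to 3, and the strains did not overlap.

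Of the matrix ligands of dystroglycan, 6 of 8 could be tested and 0 were called between the strains. Lama5 (laminin alpha-5) had 66.3 to 127 CPM in SHR and 163 to 602 CPM in WKY, without overlap (log2 fold change -1.72, SE 0.23, adjusted p = 0.0778, and 1.64e-09 by DESeq2). Lama2, the laminin alpha-2 chain that dystroglycan binds in muscle basement membrane, had 162, 81.8 and 206 CPM in SHR replicates 1 to 3, against 45.6, 69.6 and 134 CPM in WKY replicates 1 to 3, and its fitted difference was 0.93 (SE 0.32, adjusted p = 0.334). Hspg2 (perlecan) reached 1179.6 CPM in the batch 2 library of WKY, against 232 CPM in that of SHR, and lay between 110 and 174 CPM in the other libraries. Its strain difference was -0.81 (SE 0.55, adjusted p = 0.58).

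All 19 enzymes that build the dystroglycan sugar chain were tested, 0 were called between the strains, and their median log2 fold change was -0.11. Pomgnt1, which extends the O-mannose sugar, had 53.2 to 271 CPM in SHR and 92.8 to 227 CPM in WKY and a log2 fold change of -0.23 (SE 0.24).

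Of 16 matched cytoplasmic and membrane partners 13 were tested and 0 called between the strains, with a median of -0.35. Cav3 (caveolin-3, the muscle caveolin, which binds dystroglycan) stood close to the detection limit in SHR with 0.158, 0.51 and 0.572 CPM in SHR replicates 1 to 3, against 3.53, 1.11 and 19.5 CPM in WKY replicates 1 to 3. The strains did not overlap (log2 fold change -3.62, SE 0.83). Its counts were 3, 10 and 11 in SHR replicates 1 to 3, against 70, 21 and 313 in WKY replicates 1 to 3. Cav3 thus passed the filter through WKY, so no test of it by itself is given. Pgm5 (aciculin, a partner of dystrophin and utrophin) had 2.2, 2.85 and 13.8 CPM in SHR replicates 1 to 3, against 5.35, 6.50 and 29.2 CPM in WKY replicates 1 to 3, lower in SHR within each batch (log2 fold change -1.17, SE 0.20, adjusted p = 0.121, and 0.000475 by DESeq2). Plec (plectin) and Mast2, a kinase that binds syntrophin, had log2 fold changes of -0.35 (SE 0.35) and -0.18 (SE 0.22).

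Integrins and Bcam are the other laminin receptors of such cells, and 0 of 6 were called, with a median of -0.93. Itga6 (integrin alpha-6) had 4.36, 7.04 and 7.54 CPM in SHR replicates 1 to 3, against 80.8, 69.5 and 40.0 CPM in WKY replicates 1 to 3. The strains were far apart, and the log2 fold change was -3.28 (SE 0.36, adjusted p = 0.0524, and 9.68e-16 by DESeq2). Itga3 had 153 to 298 CPM in SHR and 414 to 708 CPM in WKY, also without overlap (log2 fold change -1.44, SE 0.24, adjusted p = 0.121). Itgb1, the beta-1 chain that pairs with both, had 960.2 to 1518 CPM in SHR and 1632 to 1756 CPM in WKY. It was likewise without overlap (log2 fold change -0.41, SE 0.22, adjusted p = 0.488). Among all genes, 9.81% had no overlap, 5.30% with SHR lower. The strains overlapped in Itga7, Itgb4 and Bcam, named here after their values were seen. Itga7 was lower in SHR (-2.71 in the fit, SE 0.68). Itgb4 (0.94, SE 0.42) and Bcam (1.56, SE 0.87) were higher in SHR, also in log2 CPM within both batches. The receptors thus did not all differ in 1 direction.

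**Figure D5:**
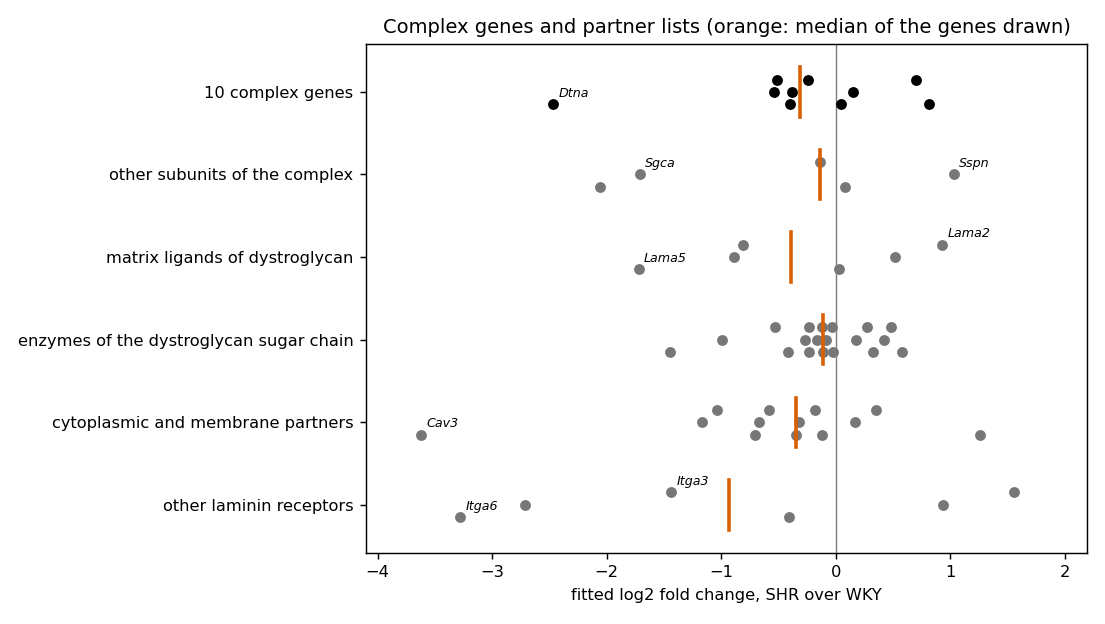
Fitted log2 fold changes of SHR over WKY for the 10 complex genes and the tested genes of 5 partner lists, with an orange line at the median of the genes drawn. Sntg1, with 1 count summed over the SHR libraries, is left out. Medians run from -0.93 in the other laminin receptors to -0.11 in the sugar chain enzymes.

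By batch, 15 of the 50 partner genes were higher and 7 lower in batch 2 (edgeR), beside 21.0% and 22.5% of all genes. Of the 22, 10 were called in each fit that left out 1 library, and without WKY replicate 3 the total was 11. By list, 4 ligands were called higher and 1 lower, and 4 enzymes higher and 6 lower. Lama5 had a batch log2 fold change of 1.30 (SE 0.23, adjusted p = 0.00758) and Pgm5 of 2.37 (SE 0.20, adjusted p = 0.00135). Pomgnt1 was lower in batch 2, with -1.67 (SE 0.28, adjusted p = 0.0068). Sspn was higher in batch 2, with 1.62 (SE 0.29, adjusted p = 0.00877), and was not called without WKY replicate 3 (0.0596) or SHR replicate 3 (0.0552).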

How the data were processed

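Libraries of 100 bp paired-end reads were made from 6 samples, 3 per strain. The authors deposited estimated counts per gene (RSEM 1.2.28, Bowtie2 2.4.4, DESeq2 1.42.1 and the Rnor_6.0 build are named without roles in the submitters' processing notes), 8.96% of them not whole (tolerance 0.001). The log2 values the authors deposited have equal batch means in every gene (largest difference 7.5e-09); no source used here says how they were made, nor how strand and overlapping genes were handled.

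Estimated counts were rounded and filtered with filterByExpr by strain (12614 of 16770 genes kept). They were scaled by TMM (factors 0.873 to 1.07) and fitted with edgeR 4.0.16 in R 4.3.3 (robust quasi-likelihood F-test, two-sided, terms batch and strain, 3 residual degrees of freedom). Benjamini-Hochberg adjustment ran over all genes tested, and calls needed an adjusted p below 0.05. Standard errors are the absolute log2 fold change over the square root of F. Within-batch differences used log2 CPM with a prior count of 2. Same-numbered libraries deviated together from their strain means (correlations 0.303, 0.4 and 0.655), so the replicate numbers, taken from the sample titles, were treated as pairs in a blocked fit; replicates 1 and 2 shared a batch, and SHR replicate 1 correlated more with WKY replicate 2 (0.484). The code recovered 73.5% to 77% of 200 genes changed 4-fold in 3 simulations of 12614 genes, fitted with the same terms. These simulations held no batch difference, so they do not give the recovery in libraries whose batches differ as here.

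The members, the lists and the tests were chosen with earlier results of these data known. Named partner genes were, per list, those called, the 2 with the smallest strain p, the 2 with the highest mean CPM, and Lama2 and Sspn; some genes under this rule are not reported here. Listed genes were matched by symbol, and 94.1% of gene identifiers matched RefSeq. Sgcz, Mast1 and Kcnj10 among partners and Emcn, Cldn5, Robo4, Sox10, Myh4 and Myh6 among markers were not matched and are not analysed here. Markers of macrophages (5 matched) summed to 28.8 to 67.5 CPM in SHR and 30.5 to 55.6 CPM in WKY, those of Schwann cells (4) to 14.3 to 61.9 CPM in SHR and 1.49 to 9.24 CPM in WKY, those of mesothelium (6) to 381 to 1069 CPM in SHR and 67 to 625 CPM in WKY, and those of endothelium (11) to 20.1 to 37.9 CPM in SHR and 19.1 to 32.9 CPM in WKY.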

Additional observations from a re-analysis of the deposited data

How the results depend on the processing

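Between SHR and WKY, 32 genes were called in all. That number was 19 with at least 10 counts required in every library, 695 by DESeq2, 6 with the replicate block (2 higher and 4 lower in SHR) and 2 with no batch term. With 1 library left out it ran from 0 to 65 (0 without SHR replicate 1 or 2, where 1134 and 1513 genes had an unadjusted edgeR p below 0.05, and, for the WKY libraries, 4 without replicate 1, 65 when replicate 2 was dropped and 20 when replicate 3 was). Dtna was not called with the replicate block (adjusted p = 0.0858), in batch 1 only (0.0621) or with no batch term (1.0). The block changed no other strain call among the 10 genes and the partner lists. The marker Tcf21, which passed the filter through SHR alone, was called by edgeR without the block and not with it. DESeq2 called 4 of the other subunits (Sntg1 among them), 1 matrix ligand, 2 sugar chain enzymes, 2 cytoplasmic and membrane partners (Cav3 among them) and 3 other laminin receptors. Itga6, a laminin receptor, was called with RLE scaling, with no filter and in batch 1 only (1 each), and with 1 library left out the number ran from 0 to 1. The 22 partner genes called by batch were 11 to 20 with 1 library left out. The median strain difference of the complex genes (-0.31) was -0.04 in batch 1 only and ran from -0.40 to -0.03 with 1 library left out, and the median batch difference (0.81) ran from 0.73 to 1.14. Of 140 recomputed strain differences of the 10 genes, 136 moved by less than 1 SD and 7 changed sign, all in Sgcd, Sgce or Sntb2. The 4 that moved further were those of Dtna (-1.45), Dtnb (0.52), Dag1 (-0.33) and Sntb1 (-0.29) in the authors' deposited log2 values. Why these values moved was not tested, and 3 libraries per strain, with 1 of each in batch 2, limit them.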
